A study of Mus musculus with 12 samples.

Results

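Lyz2, Lyz1, Cd68, Csf1r, Adgre1, Itgam, Itgb2, Fcgr1, Aif1 and Mpeg1 are 10 genes that mark phagocytes and other myeloid leukocytes. Their levels were followed in dorsal skin under stress and imiquimod. They were taken by gene symbol from the deposited expression tables, where all 10 were found among 55401 genes. RNA of whole dorsal skin from C57BL/6J mice had been sequenced on day 29 in 12 libraries, which formed 4 groups of 3. Control mice received no treatment, a second group underwent chronic restraint stress (CRS), another received imiquimod (IMQ), and in the last group restraint and imiquimod were combined (CRS+IMQ). Restraint in a narrow space is a psychological stressor that drives glucocorticoid release. Imiquimod, an agonist of Toll-like receptor 7, causes skin lesions in mice that resemble psoriasis. The labels gave no age, sex, dose or length of treatment. Levels are FPKM, fragments scaled to transcript length and to the fragments mapped in the library, and can be compared between genes.

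Phagocytes are the cells that take up microbes, immune complexes and dead cells, and in skin they are mainly dermal macrophages, with monocytes and neutrophils entering when the skin is inflamed. Macrophages depend on signals through the CSF1 receptor, bind antibody-coated particles through Fc receptors and kill and digest what they take up with lysozyme, lysosomal enzymes and pore-forming proteins. The integrin CD11b/CD18, encoded by Itgam and Itgb2, is the complement receptor and adhesion molecule of monocytes, macrophages and neutrophils. These genes therefore mark partly different cells, and several of them, such as Lyz2, Itgam and Itgb2, are shared by macrophages and neutrophils.

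The 10 genes showed 1 pattern with 1 exception. Levels were high in control skin, several-fold lower after stress alone and after imiquimod alone, and high again after both, except for Lyz1, which stayed low. Summed over the 10 genes, the libraries held 1803, 1355 and 1353 FPKM in control, 206, 199 and 208 in CRS, 200.4, 293 and 233 in IMQ, and 2063, 2074 and 2080 in CRS+IMQ. Lyz2 made up most of each sum, so the genes are described separately. In whole tissue, fewer cells of a type and less RNA per cell cannot be told apart.

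**Figure D1:**
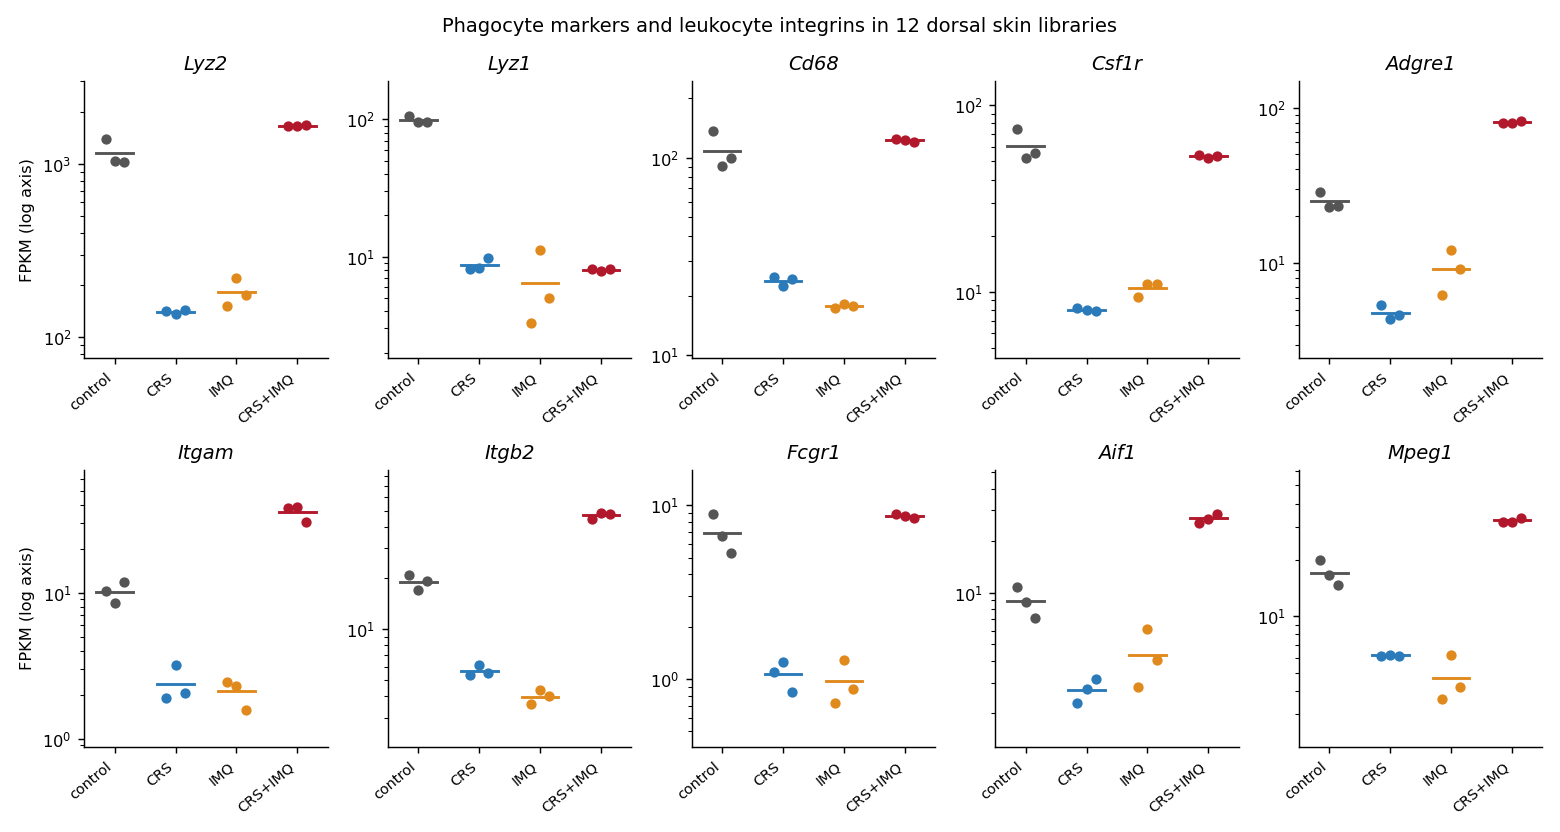
FPKM of each gene (log axes) in the control, CRS, IMQ and CRS+IMQ libraries, with 1 point per library and a bar at the mean of 3 libraries. For 9 of the 10 genes the CRS+IMQ libraries lie above every CRS and IMQ library, and for Lyz1 alone, at 7.81 to 8.18 FPKM, they do not.

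Stress without imiquimod lowered all 10 genes. In CRS versus control, 10 of 10 passed an adjusted p under 0.05 with a lower level, against 28.4% of the 13944 genes tested. Every control library lay above every CRS library for all 10, as it did for 36.0% of the genes tested. The median log2 change of the 10 was -2.02, and that of all genes tested was -0.09. The changes ran from -3.37 for Lyz1 to -1.32 for Mpeg1. Here and below, a change is the difference of mean log2(FPKM + 1), tested with limma, and adjusted p-values follow Benjamini and Hochberg over all genes tested. Folds are ratios of mean FPKM.

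Under imiquimod the same stress went with higher levels. In CRS+IMQ versus IMQ, 9 of 10 genes passed with a higher level, against 18.7% of the 13981 genes tested. The median was 2.65, and that of all genes was -0.07. The 9 ranged from 2.25 for Csf1r to 3.57 for Itgam, and their groups did not overlap, which held for 24.7% of the genes tested in the higher direction. Lyz1 differed by 0.42 (95% interval -0.48 to 1.31, adjusted p = 0.41). The difference between both stress effects, the interaction, passed for 10 of 10 genes in the higher direction, against 28.1% of 14864 genes. It ran from 3.78 for Lyz1 to 6.20 for Lyz2, with a median of 4.84 against 0.04 for all genes.

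Imiquimod without stress went with lower levels of all 10 genes, and imiquimod on top of stress with higher levels of 9. In IMQ versus control 10 of 10 passed as lower, against 13.5% of 13981 genes, with no overlap of the groups (23.0% of all genes) and changes from -3.89 for Lyz1 to -0.92 for Aif1 and a median of -2.0 against 0.02 for all genes. In CRS+IMQ versus CRS 9 of 10 passed as higher, against 26.9% of 14864 genes, with no overlap of the groups (37.7% of all genes) and changes from 2.22 for Mpeg1 to 3.82 for Adgre1, with a median of 2.72 against 0.06. Control and CRS were deposited in a different table from IMQ and CRS+IMQ. In these comparisons, and between control and CRS+IMQ, imiquimod and the table therefore cannot be told apart.

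Whether separate animals stood behind the 3 libraries of a group was not stated in the labels, so p-values measure only the spread between these samples, which may be technical. The median coefficient of variation of the 10 genes was 17.3% in control and 25.5% in IMQ, but 8.53% in CRS and 2.55% in CRS+IMQ. Over genes of at least 10 FPKM the medians were 12.98%, 12.95%, 4.93% and 3.70% in the same order. The stressed libraries were therefore also averaged to 1 sample per group. Then 8 of 10 genes passed as lower in CRS versus control, against 4.34% of the genes tested, with adjusted p = 0.056 for Aif1 and 0.0501 for Mpeg1. In CRS+IMQ versus IMQ 8 passed as higher, against 4.80%, with adjusted p = 0.053 for Aif1. The counts were 9 in CRS+IMQ versus CRS, against 6.26%, and 10 in the interaction, against 12.9%. An exact permutation test of 3 against 3 libraries cannot go below p = 0.1.

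**Figure D2:**
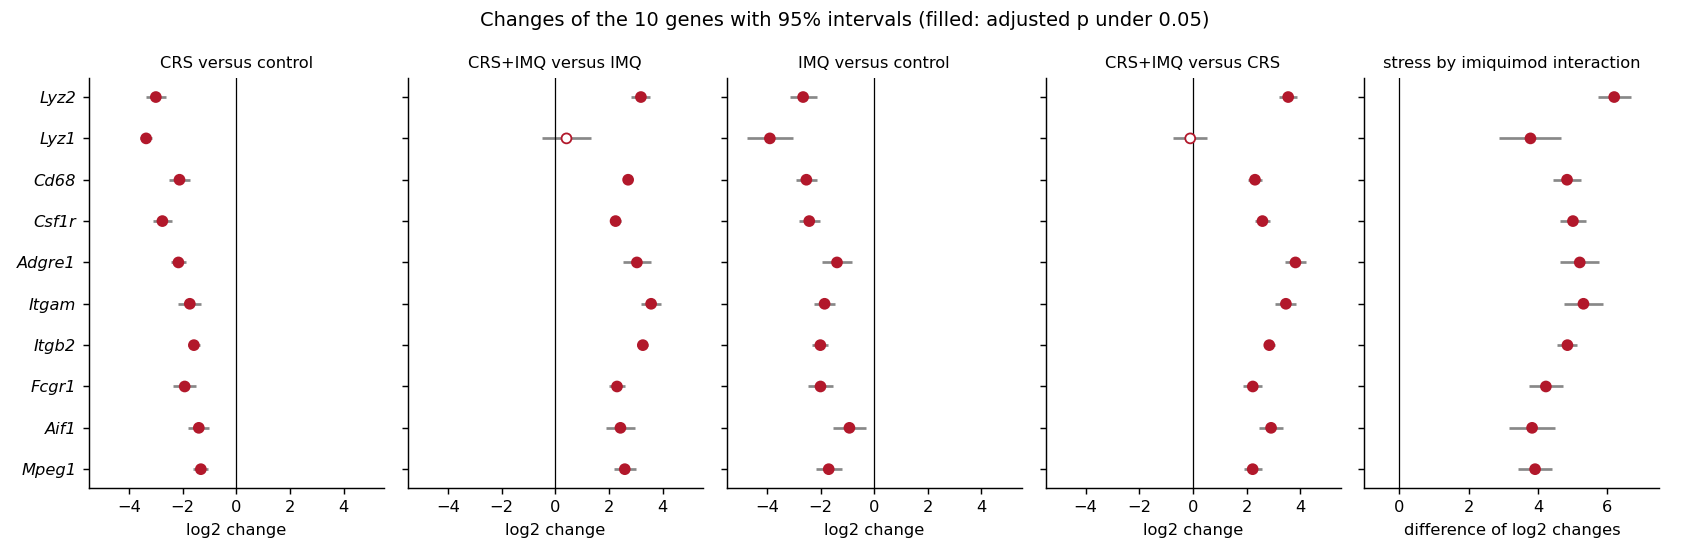
Changes of the 10 genes as differences of mean log2(FPKM + 1) in the 5 comparisons, with 95% intervals from limma, where filled points have an adjusted p under 0.05. All 10 points lie below 0 in CRS versus control and in IMQ versus control, 9 are filled and lie above 0 in both CRS+IMQ comparisons, and all 10 interaction values lie between 3.78 and 6.20.

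Lysozymes digest bacterial cell walls. Mouse skin RNA held 2 of them from neighboring genes on the minus strand of chromosome 10. Lyz2, the lysozyme of macrophages and neutrophils, lies at 117277331 to 117282321 (mm10, GENCODE M21), and Lyz1, best known from Paneth cells of the mouse gut, at 117287797 to 117292868. Both have 4 exons. The transcripts were 96.0% identical over 1262 aligned bases, and their start regions are alike as well. The sequences below (GRCm38.p6) run from 100 bases before to 50 bases after the RefSeq start, with the 9 differing bases in capitals. They are shown because these near-copies behaved differently. They lie at chr10:117282223-117282372 and chr10:117292819-117292968. For Lyz2 the RefSeq start lies inside the GENCODE span given above, and for Lyz1 at the end of it.
Lyz2: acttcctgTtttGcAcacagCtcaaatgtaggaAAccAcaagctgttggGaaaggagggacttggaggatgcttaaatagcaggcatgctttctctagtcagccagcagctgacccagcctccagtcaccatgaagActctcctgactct
Lyz1: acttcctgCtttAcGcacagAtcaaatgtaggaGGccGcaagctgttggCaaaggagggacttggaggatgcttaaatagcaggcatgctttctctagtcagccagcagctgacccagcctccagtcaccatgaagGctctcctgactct
Over these 150 bases 94% of positions were equal. In the 150 bases before them, 40% of positions were equal when compared without gaps.

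Lyz2 was the most abundant of the 10 genes in every group. The control libraries held 1386, 1036 and 1020 FPKM and the CRS libraries 143, 136 and 144, an 8.15-fold lower mean (log2 change -3.0 ± 0.15 SE, adjusted p = 0.00012). The IMQ libraries held 151, 221 and 176, and the CRS+IMQ libraries 1648, 1656 and 1667. Every CRS+IMQ library was thus above every other library, also above control. CRS+IMQ was 9.08-fold above IMQ (3.19 ± 0.14, adjusted p = 4.4e-05). The interaction of 6.20 ± 0.21 was the largest of the 10 genes and, by absolute size in either direction, rank 18 of the 14864 tested. This order holds for log2(FPKM + 1), which understates changes of less abundant genes. Under alternative processing the interaction ran from 5.95 to 6.34 for Lyz2, 5.12 to 6.12 for Itgam and 4.06 to 5.65 for Fcgr1.

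Lyz1 began at 106, 95.7 and 96.3 FPKM in control and fell to 8.18, 8.27 and 9.79 in CRS, an 11.3-fold lower mean (-3.37 ± 0.10, adjusted p = 2.1e-05). It held 3.27, 11.1 and 5.0 FPKM in IMQ and 8.13, 7.81 and 8.18 in CRS+IMQ. The lowest control library was thus far above all 9 others, and the CRS+IMQ libraries lay within the range of IMQ. In CRS+IMQ versus CRS the change was -0.10 (95% interval -0.74 to 0.53, adjusted p = 0.79). The Lyz1 result against IMQ depended on IMQ replicate 2, the library at 11.1 FPKM. Without it the change was 0.84 and passed (adjusted p = 0.010). The interaction of Lyz1, 3.78 ± 0.40, combines a fall under stress without imiquimod with no detected change under it.

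The balance of the lysozymes therefore differed in all groups. Lyz1 stood at 7.63, 9.24 and 9.44 percent of Lyz2 in control, 5.73, 6.07 and 6.82 in CRS, 2.17, 5.04 and 2.83 in IMQ, and 0.493, 0.472 and 0.491 in CRS+IMQ. No library of one group overlapped that of another, although each exact test of 3 against 3 stops at p = 0.1. Fragments can be shared between such near-copies, and how the authors' counting assigned them is not given in the sources used here. Of all stretches of 50 bases in the Lyz1 transcript, 16.1% also occur in Lyz2, of those of 100 bases 2.06%, and of 150 bases 0 of 1114. If the smallest ratio, 0.472 percent of Lyz2, is read as a shared portion, it equals 7.77 to 7.86 FPKM in CRS+IMQ, nearly the whole Lyz1 level, but 4.81 to 6.54 FPKM in control, 0.643 to 0.677 in CRS and 0.711 to 1.04 in IMQ. The remainder would be 0.360, 0 and 0.317 FPKM in CRS+IMQ. It would be 2.56, 10.1 and 4.15 in IMQ and 7.51, 7.63 and 9.11 in CRS. The smallest ratio was that of CRS+IMQ replicate 2, so a remainder near 0 in CRS+IMQ is fixed by this choice and is no test. The portion is also the largest fixed share that leaves no library below 0, and the true portion is not known. Whether Lyz1 was equal, higher or lower in CRS+IMQ than in IMQ or CRS is thus uncertain, while its control level was 90.8 to 99.3 FPKM above that portion.

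**Figure D3:**
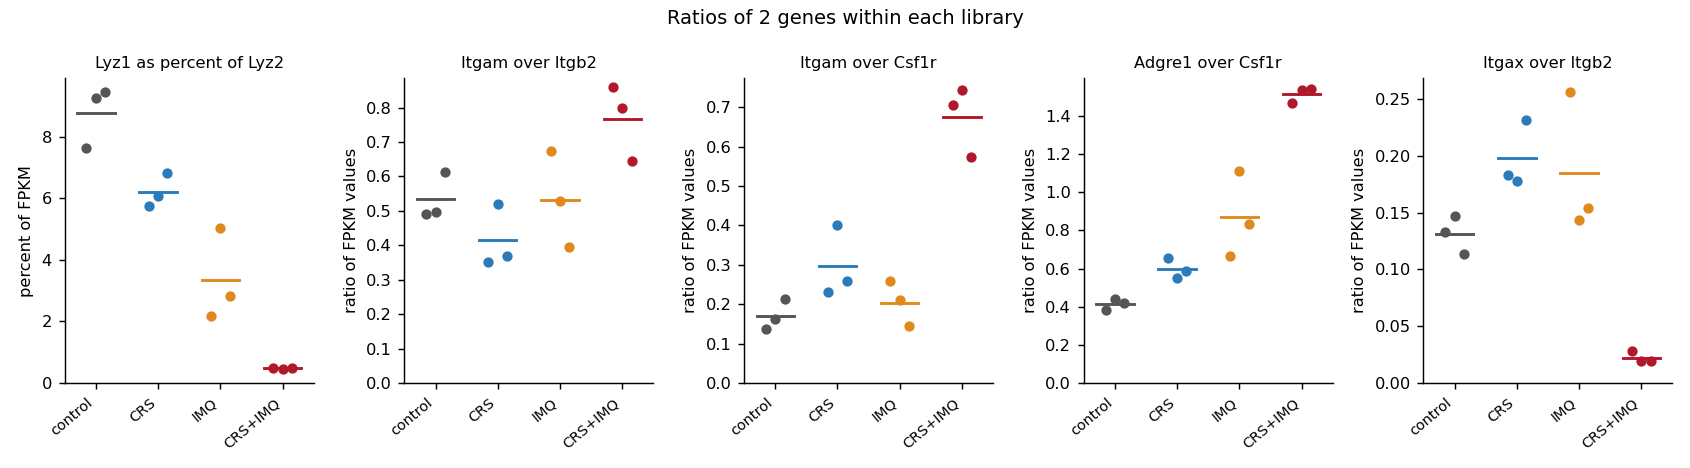
Ratios of FPKM values within each library, with Lyz1 in percent of Lyz2 and the other pairs as plain ratios, 1 point per library and a bar at the mean of 3 libraries. Lyz1 falls from 8.77% of Lyz2 in control to 0.485% in CRS+IMQ, while Itgam over Csf1r and Adgre1 over Csf1r are highest in CRS+IMQ.

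Both leukocyte integrin genes were low after either treatment and above control after both. Itgam encodes CD11b, the alpha chain of complement receptor CR3, and lies on chromosome 7 at 128062640 to 128118491 on the plus strand. Its levels were 10.2, 8.46 and 11.8 FPKM in control, 1.89, 3.19 and 2.04 in CRS, 2.44, 2.30 and 1.57 in IMQ, and 38.3, 38.6 and 30.7 in CRS+IMQ. The CRS and IMQ libraries overlapped, all of them were below control, and all CRS+IMQ libraries were above it. Itgam was 4.28-fold lower in CRS than in control (-1.74 ± 0.18, adjusted p = 0.00085). It was 17.0-fold higher in CRS+IMQ than in IMQ (3.57 ± 0.15, adjusted p = 3.4e-05), the widest fold of the 10 genes.

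Itgb2, on chromosome 10 at 77530252 to 77565708 on the plus strand, encodes CD18, the beta chain shared by all beta2 integrins. It was at 20.8, 17.0 and 19.3 FPKM in control, 5.39, 6.11 and 5.53 in CRS, 3.62, 4.34 and 4.0 in IMQ, and 44.6, 48.4 and 47.6 in CRS+IMQ. The 4 groups did not overlap, in the order CRS+IMQ, control, CRS and IMQ. The change was -1.58 ± 0.10 in CRS versus control (adjusted p = 0.00018) and 3.27 ± 0.08 in CRS+IMQ versus IMQ (adjusted p = 1.1e-05). The interaction of 4.85 ± 0.13 had the smallest error of the 10 genes.

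CD18 needs an alpha chain to reach the cell surface, so the other alpha chains were set beside CD11b. Itgam stood at 0.534 ± 0.069 of Itgb2 in control, 0.414 ± 0.093 in CRS, 0.533 ± 0.140 in IMQ and 0.767 ± 0.111 in CRS+IMQ (SD, n = 3). The CRS+IMQ libraries, from 0.644 to 0.859, overlapped those of IMQ, whose highest was 0.674. Itgax, the CD11c chain of dendritic cells and some macrophages, had 0.131 ± 0.017 of Itgb2 in control, 0.198 ± 0.029 in CRS and 0.185 ± 0.062 in IMQ, but 0.0222 ± 0.0049 in CRS+IMQ. Its ratio was lower in every CRS+IMQ library than in every other library. In level, Itgax fell from 2.49 FPKM in control to 1.12 in CRS (adjusted p = 0.0024) and was 0.723 in IMQ and 1.03 in CRS+IMQ. Itgal, the CD11a chain of LFA-1 on most leukocytes, was 1.26, 0.485, 0.639 and 3.87 FPKM in the order control, CRS, IMQ and CRS+IMQ. It differed between IMQ and CRS+IMQ (1.53, adjusted p = 0.0036), but reached 1 FPKM in no IMQ library and was tested only through the higher group. Relative to Itgb2 it stood at 0.066 ± 0.014, 0.086 ± 0.009, 0.160 ± 0.026 and 0.082 ± 0.033 in the same order. This ratio was lower in every CRS+IMQ library than in every IMQ library, since Itgal rose less than Itgb2. Itgad, the CD11d chain, was under 1 FPKM in every group. Itgax and Itgal were named after their values were seen.

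PU.1, the transcription factor that drives myeloid genes in mice, binds at sequences around GAGGAA. The regions searched, from 250 bases before to 50 after the RefSeq start, were those of Lyz2, Lyz1, Cd68, Itgam, Fcgr1, Aif1 and Mpeg1. Those of Csf1r, Adgre1 and Itgb2 were not searched. GAGGAA was searched on both strands, so a match on the minus strand reads TTCCTC. It was present in 4 of these 7 regions, against 28.3% of 32851 regions of the same length. The regions of Itgam (chr7:128062390-128062689, plus strand) and Cd68 (chr11:69666121-69666420, minus strand) held 3 and 2 matches, in capitals below, and are shown because they held the most.
Itgam: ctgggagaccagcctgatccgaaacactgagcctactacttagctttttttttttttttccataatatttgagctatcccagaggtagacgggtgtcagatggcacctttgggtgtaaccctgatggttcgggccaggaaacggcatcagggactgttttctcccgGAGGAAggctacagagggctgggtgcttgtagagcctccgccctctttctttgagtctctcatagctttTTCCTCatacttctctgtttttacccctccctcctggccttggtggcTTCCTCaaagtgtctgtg
Cd68: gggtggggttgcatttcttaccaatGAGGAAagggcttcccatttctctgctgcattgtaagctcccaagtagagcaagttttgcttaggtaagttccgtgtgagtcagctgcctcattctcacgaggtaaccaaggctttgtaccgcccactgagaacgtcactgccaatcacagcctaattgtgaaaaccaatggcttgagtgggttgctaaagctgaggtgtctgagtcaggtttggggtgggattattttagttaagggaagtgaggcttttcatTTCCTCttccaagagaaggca
Fcgr1 and Aif1 held 1 match each. The longer form GAGGAAGT, which contains GAGGAA, was in 0 of 7 regions and in 3.20% of all. TTGCNNAA, the C/EBP form, was in Lyz1 and Cd68 (10.8% of all), TGTGGT, the RUNX form, in Lyz2 (16.8% of all), and TGANTCA, the AP-1 form, in Cd68 (7.81% of all). A match is a run of letters and does not show binding.

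Csf1r, the receptor for the growth factors CSF1 and IL-34 that keep macrophages alive, was low after either treatment and overlapped control after both. Its levels were 75.0, 52.2 and 55.3 FPKM in control, 8.20, 7.97 and 7.91 in CRS, 9.41, 10.9 and 11.0 in IMQ, and 54.4, 52.0 and 53.4 in CRS+IMQ. The CRS+IMQ libraries overlapped control, and every IMQ library was slightly above every CRS library. CRS was 7.58-fold lower than control (-2.76 ± 0.14, adjusted p = 0.00014), the third largest fall of the 10 genes. CRS+IMQ was 5.10-fold above IMQ (2.25 ± 0.08, adjusted p = 2.2e-05).

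The ligands of this receptor differed from each other, and they were named after their values were seen. Il34, made by keratinocytes in skin, was 28.7 FPKM in control and 8.25 in CRS (-1.65, adjusted p = 0.0023), and it remained at 7.31 in IMQ and 7.26 in CRS+IMQ (-0.01 between these, adjusted p = 0.97). Csf1 was 8.59 FPKM in control and 5.35 in CRS (-0.55, adjusted p = 0.096), and 3.95 in IMQ against 8.11 in CRS+IMQ (0.84, adjusted p = 0.037). It also fell in IMQ versus control (-0.91, adjusted p = 0.037), and its interaction passed (1.39, adjusted p = 0.0074). The fall of Csf1 thus passed in IMQ but not in CRS, and its mean in CRS+IMQ was near that of control. Its rise from CRS to CRS+IMQ did not pass (0.48, adjusted p = 0.14). Spi1, which encodes PU.1, followed the phagocyte genes closely, with 16.4 ± 3.77, 3.35 ± 0.340, 4.27 ± 0.861 and 28.4 ± 1.57 FPKM in the order control, CRS, IMQ and CRS+IMQ. It fell in CRS versus control (-1.98, adjusted p = 0.00040) and rose in CRS+IMQ versus IMQ (2.49, adjusted p = 6.9e-05). Of 10 genes for CSF1 receptor ligands and myeloid transcription factors, 7 passed as lower and 0 as higher in CRS versus control (median -1.03). In CRS+IMQ versus IMQ 6 were higher and 1 lower (median 0.81).

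Adgre1 encodes F4/80, the surface receptor by which mouse macrophages are most often recognized (chromosome 17, 57358691 to 57483527). It held 28.8, 23.0 and 23.2 FPKM in control, 5.36, 4.40 and 4.64 in CRS, 6.28, 12.1 and 9.16 in IMQ, and 79.8, 80.0 and 82.2 in CRS+IMQ. All 4 groups were separate, with CRS+IMQ highest and CRS lowest. Adgre1 was 5.21-fold lower in CRS than in control (-2.16 ± 0.12, adjusted p = 0.00014) and 8.78-fold higher in CRS+IMQ than in IMQ (3.04 ± 0.21, adjusted p = 0.00018). From CRS to CRS+IMQ the mean rose 16.8-fold, the most of the 10 genes (3.82 ± 0.18, adjusted p = 6.3e-08).

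F4/80 and the CSF1 receptor thus moved unequally although both mark macrophages. Adgre1 stood at 0.384, 0.441 and 0.419 of Csf1r in control, 0.654, 0.552 and 0.587 in CRS, 0.667, 1.11 and 0.836 in IMQ, and 1.47, 1.54 and 1.54 in CRS+IMQ. The 4 groups did not overlap. Itgam over Csf1r was 0.171 ± 0.040, 0.296 ± 0.091, 0.204 ± 0.058 and 0.674 ± 0.088 in the same order. Its CRS+IMQ libraries, from 0.574 to 0.742, were above all 9 others, whose highest was 0.400. Aif1 over Csf1r, by contrast, was 0.147 ± 0.020 in control and between 0.278 and 0.563 in the other 9 libraries.

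Fcgr1 encodes CD64, the high-affinity receptor for IgG on macrophages and monocytes (chromosome 3, 96282909 to 96293969). It was the least abundant of the 10 genes in control, CRS and IMQ, at 8.90, 6.68 and 5.31 FPKM in control, 1.11, 1.25 and 0.848 in CRS, 0.732, 1.29 and 0.883 in IMQ, and 8.87, 8.64 and 8.42 in CRS+IMQ. The CRS and IMQ libraries overlapped, as did CRS+IMQ and control. Fcgr1 was 6.53-fold lower in CRS than in control (-1.93 ± 0.18, adjusted p = 0.00056) and 8.92-fold higher in CRS+IMQ than in IMQ (2.30 ± 0.12, adjusted p = 7.1e-05). It reached 1 FPKM in 2 CRS libraries and 1 IMQ library, so it entered the tests through the higher group. The other 9 genes were above 1 FPKM in all libraries. At low levels log2(FPKM + 1) understates the change.

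Of 9 other genes for Fc gamma receptors and their ITAM signaling, 8 passed as lower and 0 as higher in CRS versus control (median -1.17). In CRS+IMQ versus IMQ 9 of 9 were higher (median 2.31), where Trem2 and Btk reached 1 FPKM in no IMQ library. Fcgr3, a low-affinity IgG receptor, was 53.8 ± 2.94 FPKM in control, 7.76 ± 2.11 in CRS, 9.97 ± 2.26 in IMQ and 77.3 ± 11.6 in CRS+IMQ. Fcgr4 was the gene that did not pass in CRS versus control, with 3.91 ± 1.05 against 2.38 ± 0.316 FPKM (-0.52, adjusted p = 0.052). It rose from 2.02 ± 0.414 in IMQ to 27.7 ± 0.463 in CRS+IMQ (3.26, adjusted p = 2.0e-05). The adaptor Tyrobp had 123 ± 27.3 FPKM in control, 26.5 ± 0.104 in CRS, 29.6 ± 6.61 in IMQ and 242 ± 12.8 in CRS+IMQ.

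Cd68, a glycoprotein of macrophage lysosomes and endosomes (chromosome 11, 69664213 to 69666153), was the second most abundant gene. It held 136, 91.3 and 99.4 FPKM in control, 24.8, 22.5 and 24.4 in CRS, 17.4, 18.2 and 17.7 in IMQ, and 124, 124 and 119.9 in CRS+IMQ. CRS+IMQ overlapped control, and the IMQ libraries were below those of CRS. Cd68 was 4.55-fold lower in CRS than in control (-2.12 ± 0.16, adjusted p = 0.00032) and 6.89-fold higher in CRS+IMQ than in IMQ (2.72 ± 0.06, adjusted p = 7.5e-06). Against Csf1r it was highest in CRS, at 2.98 ± 0.138, compared with 1.79 ± 0.033 in control, 1.71 ± 0.121 in IMQ and 2.30 ± 0.067 in CRS+IMQ.

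Mpeg1 encodes perforin-2, a pore-forming protein of the phagosome (chromosome 19, 12460779 to 12465283), and fell least under stress alone. Its levels were 20.0, 16.7 and 14.6 FPKM in control, 6.13, 6.25 and 6.16 in CRS, 3.61, 6.18 and 4.18 in IMQ, and 31.9, 32.0 and 33.7 in CRS+IMQ. The CRS+IMQ libraries were above control, and CRS and IMQ overlapped through IMQ replicate 2. Mpeg1 was 2.77-fold lower in CRS than in control (-1.32 ± 0.12, adjusted p = 0.00050) and 6.98-fold higher in CRS+IMQ than in IMQ (2.59 ± 0.17, adjusted p = 0.00015). Over Csf1r it stood at 0.770 ± 0.020 in CRS, the highest of the groups, against 0.284 ± 0.031 in control.

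Aif1 encodes Iba1, an actin-bundling protein of macrophages and microglia (chromosome 17, 35170991 to 35176068). It held 10.8, 8.82 and 7.13 FPKM in control, 2.28, 2.75 and 3.16 in CRS, 2.83, 6.16 and 4.05 in IMQ, and 25.2, 26.9 and 28.7 in CRS+IMQ. CRS+IMQ was above control, and the IMQ libraries lay between control and CRS with an overlap with CRS. Aif1 was 3.26-fold lower in CRS than in control (-1.40 ± 0.16, adjusted p = 0.0012) and 6.19-fold higher in CRS+IMQ than in IMQ (2.43 ± 0.23, adjusted p = 0.00057). Its fall in IMQ versus control, -0.92 ± 0.25, was the weakest call (adjusted p = 0.047). That call was lost without control replicate 1, 2 or 3 (adjusted p = 0.148, 0.136 and 0.061) and without IMQ replicate 1 or 3 (0.078 and 0.132). It was also lost with a pseudocount of 0.1 (0.051), with no filter (0.099) and with the replicate number as a block (0.066).

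Relative to control, CRS+IMQ divided the genes into 3 sets, a description across tables added after the values were seen. Lyz2, Adgre1, Itgam, Itgb2, Aif1 and Mpeg1 were higher in every CRS+IMQ library than in every control library, 6 of 10 against 25.1% of all genes. Cd68, Csf1r and Fcgr1 overlapped control. Lyz1 was lower in every library, 1 of 10 against 29.1%. The order of levels between genes differed too. Itgam, below Mpeg1 in every control library, had a mean of 35.9 FPKM in CRS+IMQ against 32.5 for Mpeg1, with overlapping libraries. Adgre1, below Csf1r in every control library, was above it in every CRS+IMQ library.

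Likeness between genes was measured as the root mean square difference of 2 profiles, each the log2(FPKM + 1) values in 12 libraries minus their mean. The added 1 compresses changes of genes at low levels, so such a gene can lie near an abundant one though its folds differ. Within the 10 genes Cd68 and Fcgr1 were most alike (0.239), followed by Fcgr1 and Mpeg1 (0.265) and by the integrin chains Itgam and Itgb2 (0.289). Lyz1 stood apart, with differences from 1.28 to Csf1r up to 1.92 to Itgam. Among 12512 genes, the 5 nearest to the mean profile were C1qb, a complement C1q chain (0.104), the mannose receptor Mrc1 (0.158), the chemokine gene Ccl12 (0.177), the C3a receptor C3ar1 (0.178) and Slfn2 (0.183).

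Each gene also had its own nearest neighbor. They were Siglec1 for Lyz2 (0.141), Slfn1 for Cd68 (0.173), Cfp, encoding properdin, for Csf1r (0.164), Rac2 for Adgre1 (0.178) and Ms4a6c for Itgam (0.227). Siglec1 was at 0.761 and 0.970 FPKM in CRS and IMQ against 11.6 in control, and Slfn1 at 0.545 and 0.366 against 7.02. The falls of Siglec1 and Slfn1 from control were thus wider in fold than those of Lyz2 and Cd68. Il33, an alarmin of epithelial cells, was nearest to Itgb2 (0.179), Pld4 to Fcgr1 (0.144), Clec4a2 to Aif1 (0.172) and Was to Mpeg1 (0.129). The nearest to Lyz1 was Ear2, a ribonuclease of the eosinophil-associated family (0.240), which held 37.1 FPKM in control and 2.44, 2.56 and 2.82 in CRS, IMQ and CRS+IMQ. Of the eosinophil genes, Siglecf, Epx and Ccr3 were under 1 FPKM in every group, and Epx was listed at 0 in control and CRS. Prg2, encoding eosinophil major basic protein and named after its values were seen, was 0.020, 0.283, 0.459 and 1.85 FPKM in the order control, CRS, IMQ and CRS+IMQ. It passed in CRS+IMQ versus IMQ (0.94, adjusted p = 0.010), where it reached 1 FPKM in no IMQ library.

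Other lists of phagocyte genes moved with the 10 genes. Beside their counts, 28.4% of all genes tested passed as lower and 15.3% as higher in CRS versus control, and 18.2% as lower and 18.7% as higher in CRS+IMQ versus IMQ. Of 12 genes for the phagosome oxidase and lysosome, 12 passed as lower in CRS versus control (median -1.31) and 12 as higher in CRS+IMQ versus IMQ (median 2.05). Ctss, the protease cathepsin S, was 125 ± 19.7 FPKM in control, 36.2 ± 2.34 in CRS, 19.9 ± 3.06 in IMQ and 187 ± 2.59 in CRS+IMQ. Ncf4, an oxidase subunit, was 7.40 ± 1.53, 1.94 ± 0.157, 1.85 ± 0.227 and 13.8 ± 0.434 FPKM in the same order. Of the pan-leukocyte genes 9 of 9 tested were lower and then 10 of 10 higher (medians -1.83 and 1.99).

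Beta2 integrin partners, activators and ligands moved less. In CRS versus control 5 of 9 tested were lower and 2 higher (median -0.46), and in CRS+IMQ versus IMQ 7 of 10 were higher (median 0.82), where Itgal and Vcam1 reached 1 FPKM in no IMQ library. Fermt3, encoding the integrin activator kindlin-3, was 7.20 ± 2.93, 2.15 ± 0.363, 2.17 ± 0.297 and 8.90 ± 2.84 FPKM in the order control, CRS, IMQ and CRS+IMQ. Icam1, a ligand of beta2 integrins, was 9.01 ± 1.03, 5.34 ± 0.126, 6.57 ± 0.657 and 13.03 ± 0.362 FPKM.

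**Figure D4:**
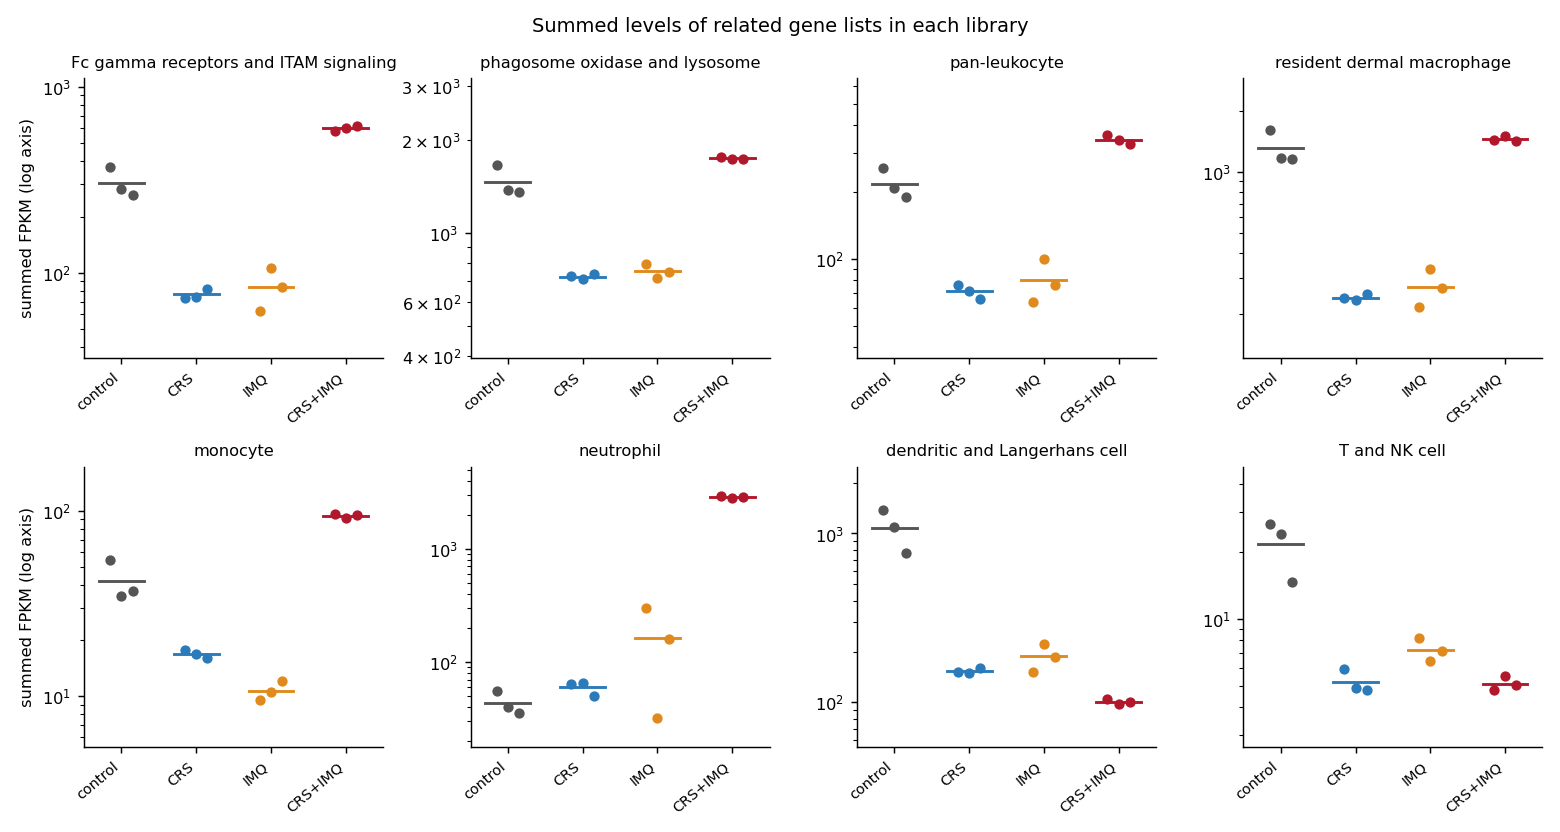
Summed FPKM (log axes) of 8 lists of related genes in each library, with 1 point per library and a bar at the mean of 3 libraries. The neutrophil sum lies between 2791 and 2924 in CRS+IMQ against at most 301 elsewhere, while the dendritic and Langerhans cell sum is lowest in CRS+IMQ.

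The 10 genes are shared by several cell types, so markers of each were set beside them. Resident dermal macrophage genes moved the same way with 1 exception. In CRS versus control 12 of 12 were lower (median -2.52), and in CRS+IMQ versus IMQ 11 of 12 were higher (median 2.29). The exception Mgl2, named after its values were seen, stayed low like Lyz1. It was 34.1, 3.40, 1.14 and 1.34 FPKM in the order control, CRS, IMQ and CRS+IMQ (CRS+IMQ versus IMQ 0.13, adjusted p = 0.43). Their sums were 1162 to 1610 FPKM in control, 233 to 249 in CRS, 217 to 331 in IMQ and 1419 to 1508 in CRS+IMQ. Cd163, a hemoglobin scavenger receptor, was 24.7 ± 5.03, 2.70 ± 0.132, 3.71 ± 0.635 and 30.7 ± 0.770 FPKM in this order. Folr2, a folate receptor of resident macrophages, reached 40.3 ± 2.33 in CRS+IMQ against 82.3 ± 4.57 in control.

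Neutrophil markers were high in CRS+IMQ, like 9 of the 10 genes, and were mixed in CRS. Their sums were 35.5 to 54.9 FPKM in control, 49.6 to 65.3 in CRS, 31.9 to 301 in IMQ and 2791 to 2924 in CRS+IMQ. In CRS versus control 6 of 8 tested passed as higher and 2 as lower. Of the 6, Retnlg, Ltf, Camp and Ngp reached 1 FPKM in no control library, so they could enter the test only through CRS, and the others were S100a8 and S100a9. The 2 lower genes were Csf3r (-1.23, adjusted p = 0.00051) and Il1r2, the decoy receptor for interleukin-1 (-1.99, adjusted p = 0.00093), which went the way of the 10 genes. All 13 passed as higher in CRS+IMQ versus IMQ, but 6 of them reached 1 FPKM in no IMQ library. Much of the CRS+IMQ sum came from S100a8 and S100a9, which inflamed keratinocytes also express, with 851 and 1769 FPKM. In control these held only 1.16 and 4.18 FPKM, and Il1r2 held 33.7 of a mean sum of 43.5. Il1r2 fell to 7.55 FPKM in CRS, where the mean sum was 59.8, so the similar sums of control and CRS hide opposite changes. Csf3r, the G-CSF receptor, was 3.19 ± 0.490, 0.783 ± 0.088, 1.19 ± 0.274 and 28.4 ± 0.669 FPKM in the order control, CRS, IMQ and CRS+IMQ. Mmp8, a neutrophil collagenase, was 0.013 ± 0.023, 0.310 ± 0.123, 0.056 ± 0.033 and 17.0 ± 0.605 FPKM in this order. The part of neutrophils in the levels of Lyz2, Itgam and Itgb2 was not tested.

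Monocyte genes passed as lower in 4 and as higher in 2 of 6 tested in CRS versus control, where 4 of the 6 reached 1 FPKM in only one of the groups. Of 7 tested in CRS+IMQ versus IMQ, 5 passed as higher, with 3 of the 7 under 1 FPKM in every IMQ library. Their sums were 34.9 to 54.1, 16.0 to 17.8, 9.57 to 12.04 and 90.9 to 95.6 FPKM in the order control, CRS, IMQ and CRS+IMQ. Chil3, a chitinase-like gene, made up much of the last, with 51.6 ± 2.65 FPKM there against 0.375 ± 0.160 in control and 2.15 ± 0.805 in CRS. Without it the sums were 34.4 to 53.9, 14.2 to 15.2, 8.56 to 11.4 and 41.5 to 42.6, so CRS+IMQ overlapped control. Ccr2, the chemokine receptor of inflammatory monocytes, named after its values were seen, was 6.12, 0.689, 0.748 and 1.84 FPKM in the same order. It fell in CRS versus control (-2.07, adjusted p = 0.00012), where it reached 1 FPKM in no CRS library. Its rise to CRS+IMQ passed from CRS (0.68, adjusted p = 0.035) but not from IMQ (0.64, adjusted p = 0.14). Ly6c2, the marker of inflammatory monocytes in mice, was at 3.89 ± 0.522 in control and 4.45 ± 0.485 in CRS+IMQ.

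Antigen-presenting and lymphoid markers did not return in CRS+IMQ as 9 of the 10 genes did. Of dendritic and Langerhans cell genes 5 of 5 tested were lower in CRS versus control (median -2.63), and in CRS+IMQ versus IMQ 3 of 5 were lower again (median -0.77). Their sums, mostly from Cd74 and the class II genes H2-Aa and H2-Ab1, were 764 to 1372 FPKM in control, 149.7 to 160 in CRS, 152 to 223 in IMQ and 98.0 to 104 in CRS+IMQ. T and NK cell genes passed as lower in 7 of 7 in CRS versus control, 4 of them under 1 FPKM in every CRS library, and in 2 of 3 tested in CRS+IMQ versus IMQ, both under 1 FPKM in every CRS+IMQ library. Of mast cell and eosinophil genes, 1 passed as lower and 1 as higher of 5 tested in CRS versus control (median -0.07). In CRS+IMQ versus IMQ 5 of 6 tested were higher (median 1.75). The mast cell protease Cpa3, the lower one in CRS, was 21.1 ± 4.57, 10.9 ± 1.09, 4.65 ± 1.65 and 50.5 ± 1.05 FPKM in the order control, CRS, IMQ and CRS+IMQ. The mast cell protease Tpsb2 was 24.0 ± 4.63, 22.6 ± 2.18, 13.1 ± 2.13 and 58.9 ± 1.87 FPKM (CRS versus control -0.07, adjusted p = 0.74).

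All 8 markers of skin itself, from keratins to collagens, were measured in every group, and they moved as well. In CRS versus control 6 were lower and 1 higher (median -2.27), and in CRS+IMQ versus IMQ 4 were higher and 1 lower (median 0.52). Krt14, the keratin of basal keratinocytes, was 1972 ± 435, 869.9 ± 42.3, 2036 ± 438 and 7926 ± 92.1 FPKM in the order control, CRS, IMQ and CRS+IMQ. The part of such shifts in tissue makeup in the levels of the 10 genes was not tested.

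The authors' deposited table for CRS versus control gave the 10 genes folds of 0.0881 to 0.361 with q-values of at most 3.9e-06. The authors' deposited table for CRS+IMQ versus IMQ gave 9 genes q-values of at most 3.8e-19, and Lyz1 a fold of 1.25 with a q-value of 0.44.

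The libraries were of similar depth, estimated at 19.0 to 20.9 M fragments (M, mega) from the steps of the lowest FPKM values, and each held 13248 to 13753 genes of at least 1 FPKM. Estimated fragments per library ran from 3402 to 45386 for Lyz2, from 80.3 to 2674 for Lyz1 and from 36.9 to 481 for Fcgr1, the gene with the fewest.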

How the data were processed

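The authors deposited FPKM for each library, in 2 tables, 1 with control and CRS and 1 with IMQ and CRS+IMQ. Beside FPKM, per the file headers, stood the authors' comparison of both groups of a table, with the fold (a ratio), log2 of the fold, p-value and q-value. The submitters' processing notes named StringTie, edgeR, limma and mm10. The aligner, the counting of shared reads and the library strandedness are not given in the sources used here. Deposited FPKM values of 0.0001 stood for 0. Counts were not used here, so no count test was run.

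A gene was tested in a comparison where 3 or more of its libraries reached 1 FPKM. Values of log2(FPKM + 1) were analysed in R 4.3.3 with limma 3.58.1 and statmod 1.5.0, using a variance trend and robust empirical Bayes. Tests were two-sided and adjusted by Benjamini-Hochberg over all genes tested, with calls at an adjusted p under 0.05. CRS versus control, CRS+IMQ versus IMQ and IMQ versus control used their 6 libraries. CRS+IMQ versus CRS and the interaction used all 12. Positions came from GENCODE M21 on mm10 and sequences from RefSeq GRCm38.p6. The lysozyme transcripts were aligned from GENCODE M21. The code was tested on simulated libraries.

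The genes, the lists and the naming rule were chosen with earlier results of these data known. All 10 genes are named, with up to 4 genes per list of smallest p in CRS+IMQ versus IMQ, markers listed at 0 and the nearest profiles among genes of a mean of at least 1 FPKM, predicted genes aside. Ligands of Csf1r, other alpha chains, S100a8, S100a9, Ltf, Camp, Ngp, Il1r2, Ccr2, Mgl2, Prg2, Trem2 and Btk were chosen after their values were seen.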

Additional observations from a re-analysis of the deposited data

Results flagged for a closer look

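The effect of stress differed with and without imiquimod for all 10 genes, by the limma interaction test over all genes with an adjusted p under 0.05. The difference of log2 changes, with imiquimod minus without, was 6.20 for Lyz2, 5.31 for Itgam, 5.20 for Adgre1, 5.01 for Csf1r and 4.85 for Itgb2. It was 4.84 for Cd68, 4.23 for Fcgr1, 3.92 for Mpeg1, 3.83 for Aif1 and 3.78 for Lyz1. The order of these values depends on log2(FPKM + 1), which understates changes of less abundant genes. For 9 genes stress lowered the level without imiquimod and raised it with imiquimod. For Lyz1 it lowered the level without imiquimod, and no change was detected with it, while its level with both treatments is uncertain beside that of Lyz2. In the same test 28.1% of all genes passed in the higher direction, and the contrast spans both deposited tables with its stress effects each taken within 1 table.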

How the results depend on the processing

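Of 850 values of single genes under the alternatives, 838 kept their direction and side of the threshold, 11 fell short of it, 1 passed newly and 0 reversed. The exceptions are Aif1, Mpeg1 and Lyz1, whose values stand in the report. The number of the 10 genes that passed without 1 replicate was 10 in CRS versus control, 9 to 10 in CRS+IMQ versus IMQ, 9 to 10 in IMQ versus control, 9 in CRS+IMQ versus CRS and 10 in the interaction. With the replicate number as a block the counts were 10, 9, 9, 9 and 10 in this order. The numbers did not pair the libraries, since correlations of same-numbered deviations ran from -0.113 to 0.040.

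Calls over all genes depended more on single libraries. They went from 6086 to as few as 3872 in CRS versus control (without control replicate 2), from 5162 to 2872 in CRS+IMQ versus IMQ (without CRS+IMQ replicate 2) and from 2735 to 1084 in IMQ versus control (without control replicate 2). A fit on all 12 libraries gave 5312 calls in IMQ versus control. With each stressed group as 1 sample, calls were fewer than the 6086, 5162, 6718 and 7325 of the main fits. This order is CRS versus control, CRS+IMQ versus IMQ, CRS+IMQ versus CRS and the interaction. The share of calls that were higher moved from 35.0% to 46.0% with median-ratio scaling and 56.2% with quantile normalization in CRS versus control, from 31.2% to 44.1% with quantile normalization in IMQ versus control, from 59.4% to 43.6% in CRS+IMQ versus CRS and from 56.96% to 43.2% in the interaction, where the median of all genes moved from 0.04 to -0.13. No member changed direction under either scaling. Depth limits Fcgr1 and Aif1 most, with 36.9 and 39.7 estimated fragments in their lowest libraries. Tests on counts were not run.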
